A study of Mus musculus and Rattus norvegicus with 32 samples.

Results

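The genes described here build the calcium store of the heart muscle cell, the sarcoplasmic reticulum, and the contacts through which it is filled and emptied. They were taken by symbol from every count table: Atp2a2, Pln, Sln, Ryr2, Casq2, Slc8a1, Trdn, Jph2, Hrc and Asph. All 10 were found among the 55487 genes of the mouse tables and among the 32883 genes of the rat table. A filter on low counts kept 9 of the 10 in each of the mouse heart comparisons, because Sln stayed at or near 0, and all 10 in the rat cells.

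With each heartbeat calcium entering through the L-type channel opens the ryanodine receptor, and calcium stored in the sarcoplasmic reticulum floods the cytosol and starts contraction. Relaxation follows as the calcium pump SERCA returns calcium to the store and the sodium-calcium exchanger carries the rest out of the cell. Phospholamban and sarcolipin hold the pump back, while calsequestrin, triadin, junctin and the histidine-rich calcium-binding protein set how much calcium the store holds and how it is released. Lower pump levels and altered exchanger levels are well known from failing hearts.

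The study asked what METTL5, an enzyme that places an m6A mark on ribosomal RNA, does in the heart. RNA of hearts from C57BL/6 mice and of cultured rat cells was sequenced in 8 groups of 4 libraries. At 1 month, METTL5-KO mice, which lack the gene in every cell, were compared with control littermates (Ctrl). At 3 months, METTL5-cKO mice, whose METTL5 fl/fl allele is cut by Cre under the Myh6 promoter and so in cardiomyocytes, were compared with Ctrl littermates. The same comparison was made 4 weeks after transverse aortic constriction (TAC), which narrows the aorta and overloads the left ventricle, in mice that the labels also give as 3 months old. Neonatal rat ventricular cardiomyocytes (NRVMs) of Sprague Dawley rats at postnatal day 2 were pre-plated to remove fibroblasts, and adenovirus then delivered either human METTL5 (AdMETTL5) or, as the control, GFP (AdGFP). All NRVMs received phenylephrine (PE), a hypertrophic agonist, at 20 µM for 24 h. The genotype field names the cKO hearts Mettl5-KO while their titles say cKO, and whether any Ctrl mouse carried Cre was not given in the sources used here. Nothing says that libraries came from separate animals or cultures, so p-values measure the spread between these libraries, which may in part be technical.

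Libraries held 14324700 to 21804907 counts, with a median of 20862458. Values are CPM, the counts of a gene relative to its library's total, after TMM scaling, which sets libraries to a common level through genes that change little. Counts over the whole Mettl5 gene were 5.12 ± 0.665 CPM in Ctrl and 5.97 ± 0.807 CPM in the libraries labelled METTL5-KO, 7.36 ± 0.554 and 6.51 ± 0.731 CPM at 3 months, and 6.75 ± 0.752 and 6.59 ± 0.764 CPM after TAC (mean ± SD, n = 4 each). Such a count includes exons outside the floxed stretch and, in cKO hearts, RNA of cells without Cre, so it does not check the genotype in either direction. The annotation also places 1 other gene on each strand over Mettl5. Counts per exon were not analysed here, and the groups are named as labelled. In NRVMs rat Mettl5 was 17.0 ± 0.774 CPM with AdGFP and 21.2 ± 1.76 CPM with AdMETTL5. Reads were aligned to the rat genome and the virus carried human METTL5, so this count does not give the size of the overexpression. Among markers of heart muscle, Actc1 was the most abundant at 3 months, after TAC and in NRVMs, and Tnnt2 at 1 month. The labels name the tissue only as heart. Of its atrial markers, Myl7, Bmp10 and Mybphl had at most 13 counts in any heart library and 0 in the 8 TAC libraries. The other atrial markers, Myl4, Stard10 and Dkk3, had enough counts to be tested in each heart comparison, with Stard10 the most abundant. The skeletal muscle genes Myh1, Myh2, Myh4 and Actn3 were also at 0 after TAC.

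Per length of annotated exon, the genes of the pump unit were by far the most abundant in the heart. In Ctrl hearts at 3 months Pln reached 1159 ± 165 CPM per kilobase (SD, n = 4) and Atp2a2, which encodes SERCA, 791 ± 215. The store proteins followed, with Hrc at 232.5 ± 23.7 and Casq2, cardiac calsequestrin, at 157 ± 27.1 CPM per kilobase. Jph2, whose product junctophilin ties the store to the cell membrane, was at 62.0 ± 9.50 CPM per kilobase. Trdn (triadin) at 21.1 ± 1.38 and Ryr2, the release channel, at 20.8 ± 3.59 differed by less than their SDs. Slc8a1, the sodium-calcium exchanger, was at 7.83 ± 2.06 and Asph at 6.29 ± 0.493 CPM per kilobase, a difference below the SD of Slc8a1 but above that of Asph. These lengths join the exons of all transcripts of a gene, so genes with many long transcripts, such as Asph and Slc8a1, can come out low. The Asph count adds transcripts of junctin to those of aspartyl beta-hydroxylase from the same gene.

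Sln, which encodes the pump inhibitor sarcolipin and is an atrial gene in the mouse, was close to absent from the mouse hearts. It had 0 to 5 counts per library at 1 month. At 3 months it had 0 to 3 counts in Ctrl and 0 to 15 in hearts labelled METTL5-cKO. After TAC it had 0 counts in 7 of 8 libraries and 3 in the other, where a count of 0 allows up to 0.138 to 0.151 CPM. No comparison was made for it in hearts. In NRVMs it was measurable, at 3.02 ± 0.598 CPM with AdGFP.

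At 1 month none of the 9 members tested passed an adjusted p of 0.05 in edgeR's quasi-likelihood test, against 0.00612% of all genes tested, and DESeq2 also called 0. At an unadjusted p under 0.05 there was 1 member, Slc8a1, against 4.57% of all genes. It read 54.0, 61.3, 54.0 and 64.7 CPM in the Ctrl libraries and 87.3, 65.9, 61.8 and 82.2 CPM in those labelled METTL5-KO. The groups overlapped narrowly, and the log2 fold change was 0.35 (SE 0.135, adjusted p = 0.97 in edgeR). In all, 8 of the 9 members had a log2 fold change above 0, with Trdn at -0.18 the other, where 51.4% of all genes were below 0. Their median was 0.28 beside -0.01 for all genes tested.

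One Ctrl heart of 1 month stood low for several members, store and junction genes among them. Jph2 was 70.6 CPM in Ctrl library 1 and 133 to 141 CPM in the other Ctrl libraries. Casq2 was 97.4 CPM there against 195 to 255, and Hrc 173 CPM against 301 to 358. Atp2a2 was lowest there too, at 1362 CPM against 1777 to 2279, but Pln was not, at 2040 CPM against 1661 to 2125. The library's TMM factor, by which its CPM are divided, was 1.25, against 0.796 to 1.01 in the other Ctrl libraries. The same library had 13640 CPM over the cardiomyocyte markers, where the other Ctrl libraries had 14880 to 20650. Without it the log2 fold change went from 0.39 to 0.17 for Casq2, from 0.26 to 0.08 for Jph2 and from 0.10 to -0.08 for Hrc. Then 7 of the 9 members were above 0, with a median of 0.15 in place of 0.28, and still no member passed.

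At 3 months, before any overload, the 2 groups could not be separated for any member. None of 9 passed in edgeR or in DESeq2, against 0.0732% of all genes tested in edgeR. There were 0 at an unadjusted p under 0.05, against 7.05%, and 0 with groups that did not overlap, against 4.23%. Log2 fold changes ran from -0.19 for Ryr2 to 0.15 for Casq2, with a median of -0.10 beside 0.00 for all genes. Atp2a2 illustrates the spread. It read 6484, 4026, 3678 and 5709 CPM in Ctrl and 5899, 4289, 4990 and 3382 CPM in hearts labelled METTL5-cKO, a log2 fold change of -0.10 (SE 0.215). Libraries of 1 group thus differed by more than the groups did. A p above the threshold does not show that levels were alike.

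**Figure D1:**
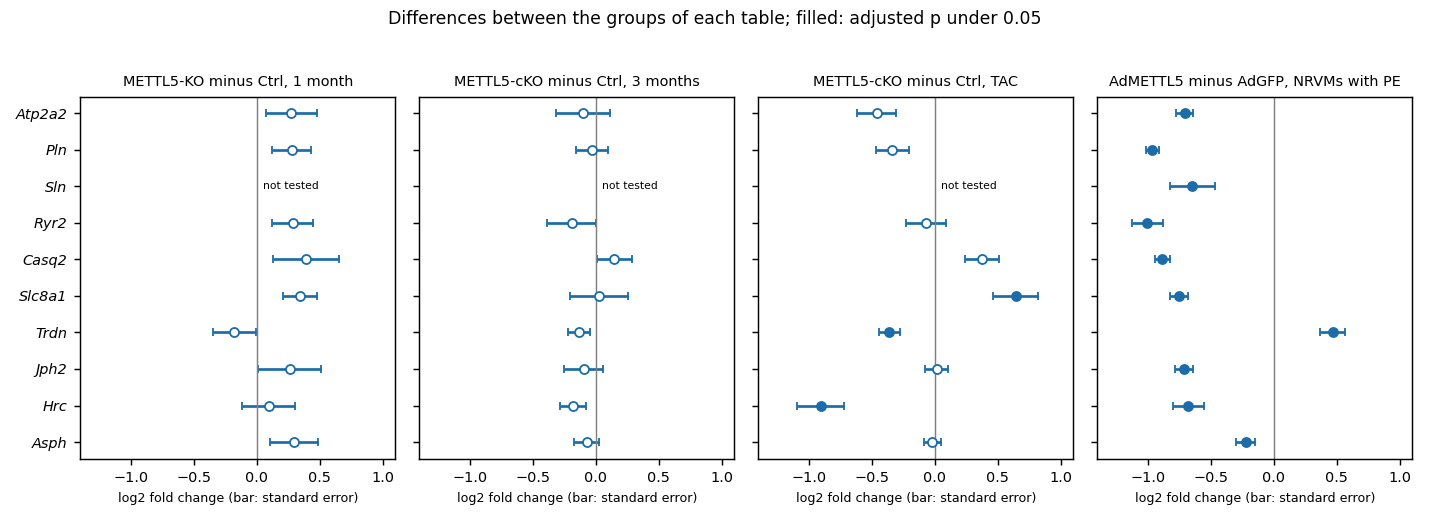
Log2 fold change of each gene in the 4 comparisons, labelled group minus its control, with bars for the standard error; filled points passed an adjusted p of 0.05 in edgeR. No point is filled at 1 or 3 months, 3 are filled after TAC and all 10 in NRVMs. There the 9 lower genes turn above 0 if libraries are scaled to cardiomyocyte markers instead of by TMM. That scaling moves the median of all genes in NRVMs by 1.15, with 14363 genes called higher and 78 lower.

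After TAC the family moved apart instead of together. In hearts labelled METTL5-cKO the store protein gene Hrc and the junction gene Trdn were lower than in Ctrl, and the exchanger gene Slc8a1 was higher. These are 3 of 9 members, against 12.7% of all genes tested; 2 were lower (6.1% of all genes) and 1 higher (6.57%). The release channel gene Ryr2 (-0.07), Jph2 (0.02) and Asph (-0.02) lay near 0, and Ryr2 and Asph turned above 0 with library-size or cardiomyocyte-marker scaling. The median over the 9 was -0.07, beside 0.00 for all genes.

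Hrc, a luminal calcium-binding protein of the store that also contacts triadin and the pump, showed the largest difference. Its gene lies on chromosome 7 of GRCm38 from 45335290 to 45338974 on the plus strand. Ctrl hearts had 512, 532, 465 and 525 CPM, and hearts labelled METTL5-cKO had 222, 235, 227 and 404 CPM. Every labelled cKO library was below every Ctrl library, and library 4 of the cKO group stood nearest to Ctrl. The log2 fold change was -0.90 (SE 0.186, adjusted p = 0.0184 in edgeR), a mean of 272 ± 88.0 CPM against 508 ± 30.2 CPM. Without cKO library 4 it was -1.15 with an edgeR adjusted p of 7.5e-05, and over all libraries left out in turn it ran from -1.15 to -0.82. The call was lost without Ctrl library 2 (edgeR adjusted p = 0.0530), Ctrl library 4 (0.0604) or cKO library 2 (0.0616).

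Trdn, which anchors calsequestrin to the release channel, is on chromosome 10 from 33080554 to 33476709 on the plus strand. Ctrl hearts had 191, 212, 202 and 206 CPM, and the labelled cKO hearts 182, 147, 149 and 154 CPM, with no overlap. Groups that do not overlap were found for 18.6% of all genes, and among members for Hrc and Trdn. The log2 fold change of Trdn was -0.36 (SE 0.0852, adjusted p = 0.0281 in edgeR). Scaled by library size alone it was -0.21 (edgeR adjusted p = 0.136) and scaled to cardiomyocyte markers -0.17 (adjusted p = 0.218). The call was also lost without Ctrl library 2, 3 or 4 or cKO library 2 or 3, where the edgeR adjusted p reached 0.0928, and without a filter on low counts (0.0528). Within the gene's span the annotation holds 4 genes on the same strand and 4 on the other, and whether counting used strand was not given in the sources used here.

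Slc8a1, on chromosome 17 from 81373105 to 81738377 on the minus strand, was the member called higher in the labelled cKO hearts than in Ctrl. Against unstressed hearts, in the joint fit given below, its log2 fold change was -0.64 in Ctrl and -0.01 in the labelled cKO hearts. Ctrl hearts had 117, 107, 77.5 and 90.3 CPM, and the labelled cKO hearts 196, 162, 142 and 110 CPM. The groups met only through cKO library 4, which lay below Ctrl library 1. The log2 fold change was 0.64 (SE 0.182, adjusted p = 0.0482 in edgeR), just inside the threshold. The call was lost without Ctrl library 2, 3 or 4 or cKO library 1, 2 or 3, where the edgeR adjusted p reached 0.124, and without a filter on low counts (0.0899). It held without Ctrl library 1 (0.74, adjusted p = 0.0499) and without cKO library 4 (0.78, adjusted p = 0.00789).

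The pump and its inhibitor leaned downwards without passing. Atp2a2, on chromosome 5 from 122453513 to 122502225 on the minus strand, had 3880, 3470, 2544 and 3437 CPM in Ctrl and 2260, 2499, 2019 and 2906 CPM in the labelled cKO hearts. Only 1 Ctrl library reached into the range of the other group, and the log2 fold change was -0.46 (SE 0.154, edgeR adjusted p = 0.0765). Pln had 2880, 2718, 2152 and 2833 CPM in Ctrl and 1751, 2053, 2139 and 2428 CPM in the labelled cKO hearts, a log2 fold change of -0.34 (SE 0.130, edgeR adjusted p = 0.112). Casq2 leaned the other way, from 508 ± 88.7 to 659 ± 67.6 CPM, with a log2 fold change of 0.37 (SE 0.134, edgeR adjusted p = 0.0933). DESeq2 placed Atp2a2 (adjusted p = 0.0232) and Casq2 (adjusted p = 0.0335) past the threshold, and so did edgeR without cKO library 4, with Pln besides (adjusted p = 0.0226, 0.0339 and 0.0360). Scaled to cardiomyocyte markers, the log2 fold change shrank to -0.28 for Atp2a2 (edgeR adjusted p = 0.121) and -0.16 for Pln (0.271), and with library size alone to -0.32 (0.0893) and -0.19 (0.249). Casq2 passed with both, at 0.57 (edgeR adjusted p = 0.0229) and 0.53 (0.0379). It also passed without Ctrl library 1 (0.48, edgeR adjusted p = 0.0487), and Atp2a2 without Ctrl library 3 (-0.56, 0.0479). Leaving out any library besides these and cKO library 4, neither gene passed.

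**Figure D2:**
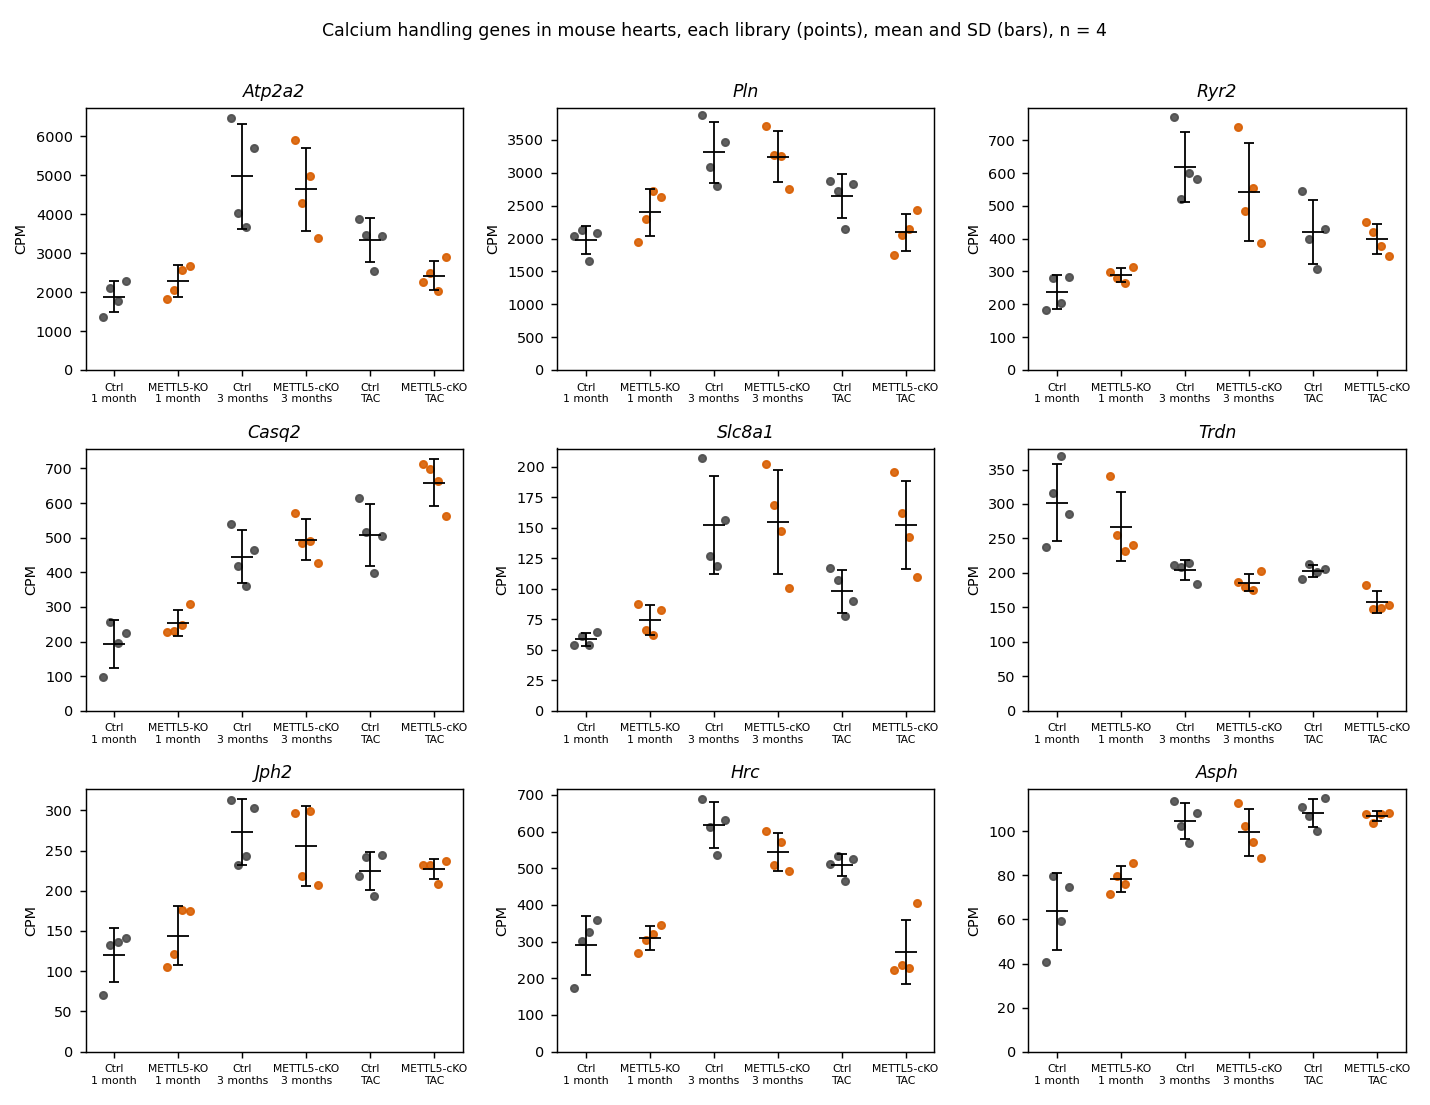
CPM of 9 genes in the 6 groups of mouse hearts, each pair of groups scaled within its own table; points are libraries and bars the mean and SD (n = 4). After TAC, Hrc shows 3 labelled METTL5-cKO libraries between 222 and 235 CPM and 1 at 404 CPM, all below the Ctrl libraries at 465 to 532 CPM.

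Markers of other cell types moved with these differences. After TAC the summed fibroblast markers were 587 to 755 CPM in Ctrl and 884 to 2253 CPM in hearts labelled METTL5-cKO, with 6 of 8 markers higher and Dcn the most abundant. Endothelial markers summed to 853 to 1046 CPM in Ctrl and 577 to 792 CPM in the other group, with 5 of 8 lower. Cardiomyocyte markers summed to 26100 to 27680 CPM in Ctrl and 22130 to 26210 CPM in the labelled cKO hearts, where 1 of 10 (Tnni3) was lower. Of the macrophage markers 2 of 8 were higher, and of those of smooth muscle 1 of 6 was higher and 1 lower. Of the atrial ones 1 of 3 was higher, Dkk3 (2.66, SE 0.403, adjusted p = 0.00851 in edgeR). Stard10 leaned lower (-0.84, edgeR adjusted p = 0.0733) and Myl4 higher (0.49, 0.0755), without passing. Of the skeletal muscle ones none of 3 passed. Over all genes tested, 6.57% were called higher and 6.1% lower. In cKO library 4 the fibroblast, endothelial and cardiomyocyte sums were 884, 792 and 26210 CPM, the closest to Ctrl of the 4 in each case. When libraries were scaled to the cardiomyocyte markers, the median of all genes moved by 0.18, Hrc was at -0.74 (adjusted p = 0.0133 in edgeR), Slc8a1 at 0.84 (0.0201) and Casq2 at 0.57 (0.0229). The part of cell make-up in these results was not tested beyond that scaling. In bulk heart RNA, fewer cardiomyocytes and less of an RNA in each cardiomyocyte cannot be told apart. At 3 months the median log2 fold change was 0.51 for fibroblast, 0.36 for macrophage and -0.38 for endothelial markers, beside 0.00 for all genes. None of these markers passed in edgeR there, against 0.0732% of all genes tested.

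The balance of exchanger and pump, read as a ratio within each library, does not depend on scaling. After TAC the log2 ratio of Slc8a1 to Atp2a2 was -5.06, -5.02, -5.04 and -5.25 in Ctrl and -3.53, -3.95, -3.83 and -4.73 in hearts labelled METTL5-cKO. All 4 libraries of the second group were above all 4 of the first, by 1.08 on average, or 2.12-fold. The exact two-sided permutation test gave p = 0.0286, the smallest that 4 against 4 libraries allow, and 0.129 after Benjamini-Hochberg adjustment over the 9 ratio tests. At 3 months the difference was 0.10 (permutation p = 0.429) and at 1 month 0.05 (permutation p = 0.8). The ratio of Pln to Atp2a2 differed by 0.12 after TAC (permutation p = 0.4), with overlapping groups.

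**Figure D3:**
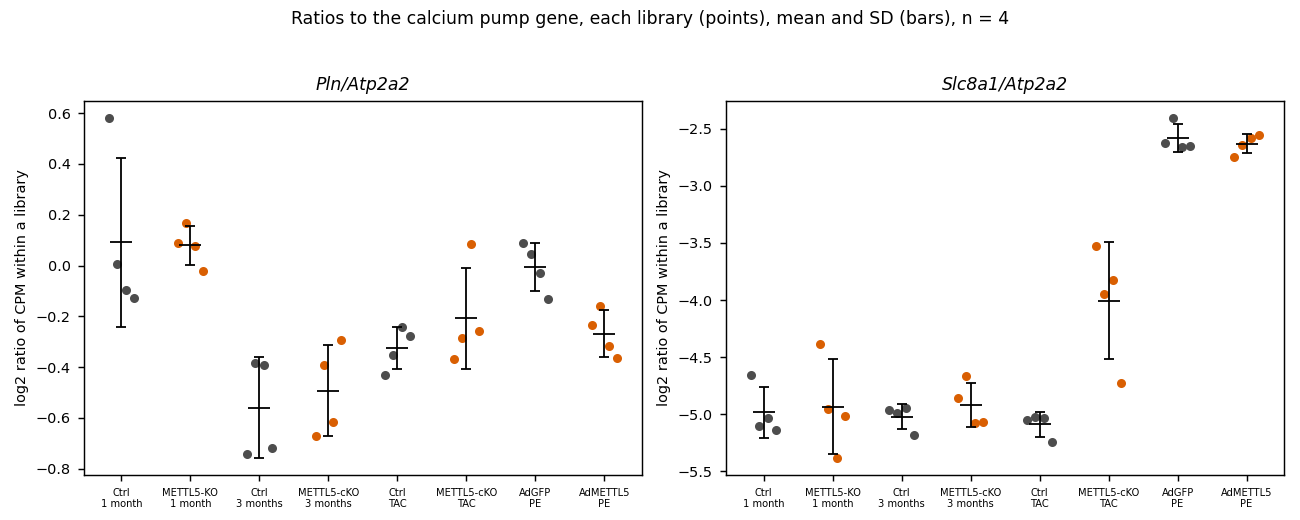
Log2 ratio of Pln and of Slc8a1 to Atp2a2 within each library of the 8 groups; points are libraries and bars the mean and SD (n = 4). For Slc8a1 the labelled METTL5-cKO libraries after TAC lie at -4.73 to -3.53, above the Ctrl libraries at -5.25 to -5.02; for Pln the groups of hearts overlap in all 3 tables.

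Among 41 other genes of calcium handling, 35 were tested after TAC and 1 passed, Strit1, which was lower. Of all genes tested 12.7% passed, 6.1% of them all being lower. It encodes DWORF, a micropeptide that raises SERCA activity by displacing phospholamban and its relatives. The counts were 184, 226, 196 and 174 in Ctrl and 32, 53, 54 and 97 in hearts labelled METTL5-cKO, or 9.69 ± 1.13 and 2.71 ± 1.49 CPM. Groups did not overlap, as for 18.6% of all genes. The log2 fold change of -1.85 (SE 0.299, adjusted p = 0.00995 in edgeR) kept an edgeR adjusted p of at most 0.0377 with any library left out. At 3 months Strit1 had 10.3, 10.2, 14.3 and 8.28 CPM in Ctrl and 5.83, 3.80, 6.20 and 7.24 CPM in the labelled cKO hearts. Those groups did not overlap either, as for 4.23% of all genes, and Mcu of the same list also had groups without overlap in both comparisons. The log2 fold change of Strit1, -0.90 (SE 0.215), had an edgeR adjusted p of 0.297, with an adjusted p of 0.0330 in DESeq2. At 1 month the log2 fold change was -1.27 (SE 0.516, edgeR adjusted p = 0.97) and the groups overlapped. None of the list passed at 1 month (33 tested) or at 3 months (35 tested), against 0.00612% and 0.0732% of all genes tested. The skeletal muscle pump gene Atp2a1 was below 1 CPM in every library at 1 month and after TAC, and at 0 to 6.01 CPM in hearts labelled METTL5-cKO at 3 months, where the summed skeletal muscle markers were 2.38 to 11.7 CPM against 1.57 to 2.56 CPM in Ctrl.

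**Figure D4:**
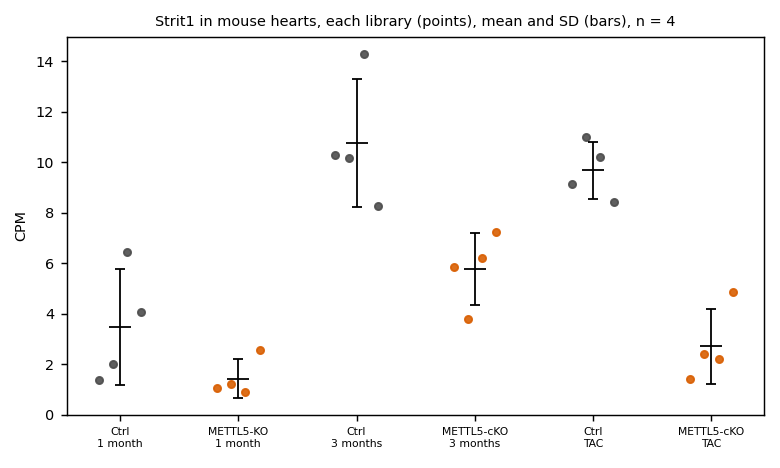
CPM of Strit1 in the 6 groups of mouse hearts, each pair scaled within its own table; points are libraries and bars the mean and SD (n = 4). The labelled METTL5-cKO libraries lie at 3.80 to 7.24 CPM at 3 months and at 1.40 to 4.84 CPM after TAC, below their Ctrl libraries at 8.28 to 14.3 and 8.44 to 10.99 CPM.

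Upstream sequence is shown for Hrc, Slc8a1 and Strit1, the genes that differed after TAC in opposite directions and have an entry among the RefSeq promoters of GRCm38.p6, which cover 6 of the 10 members. Each line gives the 200 bases before the RefSeq start, 5′ to 3′ on the gene's strand. Capitals mark matches on either strand to the letters of 3 motifs. The E-box, read by basic helix-loop-helix factors, was searched as CANNTG. The site of cardiac GATA factors was searched as AGATAA. The GC box of Sp factors was searched as GGGCGG. No marked matches overlap. Windows are chr7:45335069-45335268 (plus), chr17:81738388-81738587 (minus) and chr3:63483907-63484106 (minus).
Hrc: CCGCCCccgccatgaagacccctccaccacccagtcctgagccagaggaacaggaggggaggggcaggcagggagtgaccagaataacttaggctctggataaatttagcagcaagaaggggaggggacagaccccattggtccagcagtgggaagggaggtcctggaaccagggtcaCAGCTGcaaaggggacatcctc
Slc8a1: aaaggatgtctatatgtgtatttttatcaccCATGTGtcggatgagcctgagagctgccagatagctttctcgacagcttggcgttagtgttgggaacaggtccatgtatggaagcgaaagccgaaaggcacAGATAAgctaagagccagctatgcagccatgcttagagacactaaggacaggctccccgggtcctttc
Strit1: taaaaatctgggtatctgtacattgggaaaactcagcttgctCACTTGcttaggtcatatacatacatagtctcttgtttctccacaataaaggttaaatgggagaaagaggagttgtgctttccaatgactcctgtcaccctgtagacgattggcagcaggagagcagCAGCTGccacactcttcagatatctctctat
Hrc and Slc8a1 hold 1 E-box each and Strit1 holds 2, letters found in 58.2% of the 32851 RefSeq promoter windows of this length. The GATA letters of Slc8a1 occur in 7.8% of windows and the GC box of Hrc in 31% of them. None of the 3 windows holds TATAAA (9.96%), the letters of a MEF2 site (2.49%) or a CArG box (1.18%). A match is a description of the letters in these windows.

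A joint fit of the 16 libraries of 3 months and TAC set each genotype against its own unstressed hearts. These differences carry the table with them, since surgery, sequencing set and any change in handling cannot be told apart, and they share libraries with the comparisons above. In hearts labelled METTL5-cKO, Hrc (-0.99, SE 0.158, adjusted p = 7.0e-04 in edgeR), Atp2a2 (-0.93, SE 0.202, adjusted p = 0.0050) and Pln (-0.62, SE 0.130, adjusted p = 0.00396) fell, and Casq2 rose (0.43, SE 0.143, adjusted p = 0.0461). These are 4 members, against 19.1% of all genes tested, 3 of them lower (8.89%) and 1 higher (10.2%). The call of Casq2 was lost without library 2 or 4 of either Ctrl group, library 2, 3 or 4 of the unstressed cKO group or library 1, 2 or 3 of its TAC group, with an edgeR adjusted p of up to 0.123. It was also lost with cardiomyocyte-marker scaling (0.38, edgeR adjusted p = 0.0811). Trdn, at -0.22 (edgeR adjusted p = 0.0664), passed with that scaling (-0.28, adjusted p = 0.0487) and in DESeq2 (adjusted p = 0.0253). In Ctrl hearts none passed in edgeR or DESeq2 with their own scaling, against 0.516% of all genes, and 4 were at an unadjusted p under 0.05, against 17.6%. Those 4 were Atp2a2 (-0.58), Ryr2 (-0.56), Slc8a1 (-0.64) and Pln (-0.33), while Hrc was at -0.28 and Casq2 at 0.19. In the labelled cKO hearts Ryr2 was at -0.42 (edgeR adjusted p = 0.143). With cardiomyocyte-marker scaling 4 members passed in Ctrl too, namely Atp2a2 (-0.73, edgeR adjusted p = 0.0340), Pln (-0.47, 0.0316), Ryr2 (-0.70, 0.0359) and Slc8a1 (-0.79, 0.0488). Slc8a1 stood at -0.64 in Ctrl (SE 0.228, edgeR adjusted p = 0.167) and at -0.01 in the labelled cKO hearts.

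Whether the genotype difference itself changed with TAC was tested as an interaction. No member passed in edgeR or DESeq2, against 0.00586% of all genes tested, and 1, Hrc, was at an unadjusted p under 0.05, against 11.8%. Hrc had the value farthest from 0 among members, -0.71 (SE 0.222, adjusted p = 0.215 in edgeR), followed by Slc8a1 at 0.63 (SE 0.321, adjusted p = 0.459). Without cKO library 4 of the TAC group Hrc reached -0.97 (SE 0.128, adjusted p = 8.1e-04 in edgeR). The call on Hrc thus rested on whether that 1 library was included.

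In NRVMs with PE nearly the whole family was lower with AdMETTL5 under TMM scaling, a direction that turned when libraries were scaled to cardiomyocyte markers. All 10 members passed, against 52.8% of all genes tested, with 9 lower (25.7% of all genes) and Trdn higher (27.1%). For 9 of the 10 the groups did not overlap (48.4% of all genes). The median log2 fold change was -0.71 beside 0.00 for all genes, and scaling to cardiomyocyte markers turned the 9 lower members to 0.14 to 0.92. That scaling moved the median of all genes by 1.15, and each of the 9 stayed below that median.

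Ryr2 and Pln fell most, with TMM scaling. Ryr2 had 375, 460, 488 and 564 CPM with AdGFP and 200, 214, 243 and 284 CPM with AdMETTL5. The groups were far apart, and its log2 fold change was -1.005 (SE 0.124, adjusted p = 3.2e-05 in edgeR). Pln went from 2195, 2196, 2381 and 2289 CPM to 1150, 1258, 1117 and 1125 CPM, a log2 fold change of -0.96 (SE 0.0548, adjusted p = 7.0e-08 in edgeR). The pump gene Atp2a2 fell less, from 2282 ± 218 to 1399 ± 40.3 CPM (-0.71, SE 0.0666). The log2 ratio of Pln to Atp2a2 was therefore lower with AdMETTL5, by -0.26, without overlap (exact permutation p = 0.0286, adjusted p = 0.129). The ratio of Slc8a1 to Atp2a2 differed by -0.05 (permutation p = 0.6) and that of Sln to Atp2a2 by 0.10 (permutation p = 0.571).

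The store genes were lower as well with TMM scaling. Casq2 went from 1149 ± 92.8 to 623 ± 11.998 CPM (-0.88, SE 0.0587), and Hrc, low in these cells, from 27.2 ± 4.50 to 17.0 ± 2.16 CPM (-0.68, SE 0.120, adjusted p = 5.1e-04 in edgeR). Slc8a1 (-0.75, SE 0.0719), Jph2 (-0.71, SE 0.0708) and Sln (-0.65, SE 0.180, adjusted p = 0.00962 in edgeR) also fell with TMM scaling. Sln rested on 41 to 66 counts per AdGFP library and 24 to 32 per AdMETTL5 library. The summed atrial markers went from 446 to 490 CPM to 293 to 303 CPM, with 4 of 5 lower (25.7% of all genes). Asph was the weakest, at -0.22 (SE 0.0733, adjusted p = 0.0220 in edgeR), with overlapping groups. Its call was lost without AdGFP library 3 or 4 or AdMETTL5 library 2, where the adjusted p reached 0.0702, and with library-size scaling (-0.09, adjusted p = 0.425).

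Trdn went against the rest. It had 34.6, 39.3, 39.8 and 40.2 CPM with AdGFP and 49.1, 59.9, 60.6 and 43.1 CPM with AdMETTL5. Every AdMETTL5 library was above every AdGFP library, and the log2 fold change was 0.47 (SE 0.101, adjusted p = 0.00201 in edgeR). It was above 0 under every scaling tried, at 1.62 when scaled to cardiomyocyte markers.

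The cardiomyocyte markers of the cultures fell further than most members. All 8 that were tested were lower, where 25.7% of all genes were, with a median of -1.17. Their sum went from 25960 to 33200 CPM with AdGFP to 11380 to 12810 CPM with AdMETTL5. Fibroblast markers summed to 10710 to 11270 CPM and 8556 to 9443 CPM, with 6 of 7 lower under TMM scaling, a median of -0.38 and Col1a1 the most abundant. Their part in the fall of the calcium genes was not tested beyond the scaling above.

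**Figure D5:**
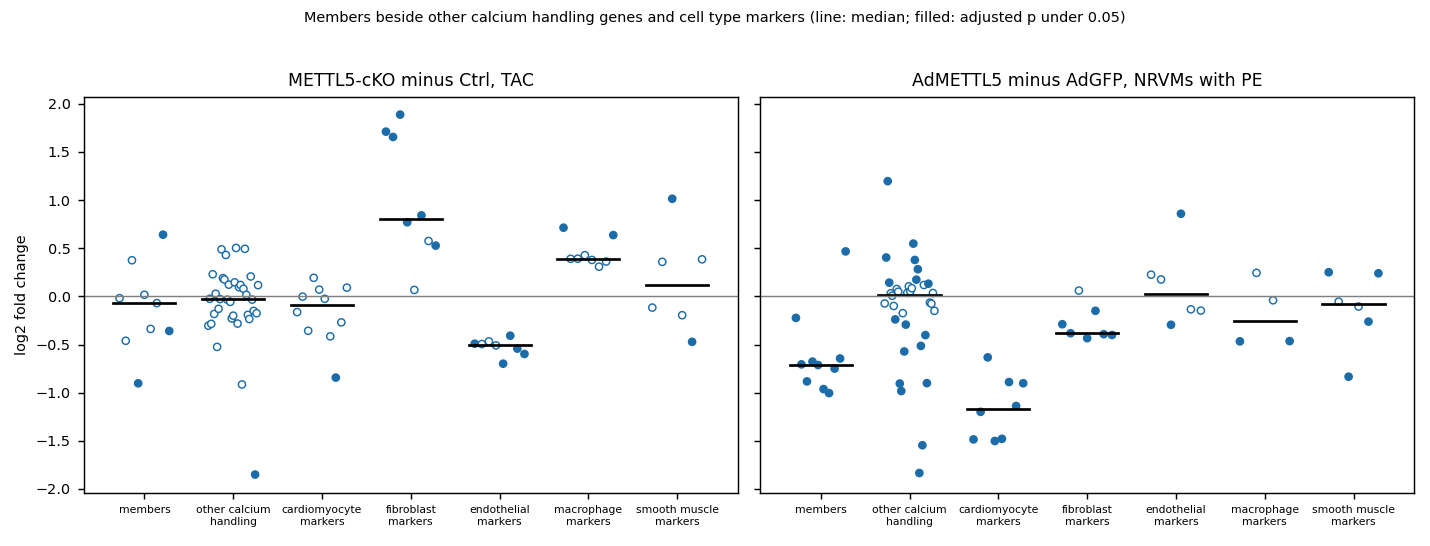
Log2 fold change of each tested gene of the family, of the other calcium handling genes and of cell type markers, after TAC (left) and in NRVMs (right), with TMM scaling; lines are medians and filled points passed an adjusted p of 0.05 in edgeR. In NRVMs the family's median of -0.71 lies between the cardiomyocyte markers at -1.17 and the other calcium handling genes at 0.02. Scaling to cardiomyocyte markers turns 9 of the family above 0, while it moves the median of all genes by 1.15.

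Of 34 other calcium handling genes tested in NRVMs, 8 were higher and 10 lower, with a median of 0.02. All genes had 52.8% called, 27.1% higher and 25.7% lower, so the share called in this list was near the background. By smallest adjusted p, Speg, a kinase of the junction, was at -0.90 (SE 0.0499), Ppp1r1a, an inhibitor of protein phosphatase, at -1.83 (SE 0.116), and S100a1, a calcium sensor that activates the pump, at -1.55 (SE 0.117). Cav3, the muscle caveolin, was at -0.98 (SE 0.0769) and Casq1, the skeletal calsequestrin, at -0.91 (SE 0.112). Atp2b2, a calcium pump of the cell membrane, was higher, from 2.89 ± 0.286 to 6.63 ± 0.763 CPM (1.20, SE 0.124). The 3 extrusion genes tested, Atp2b1, Atp2b2 and Atp2b4, were all higher (0.40, 1.20 and 0.14). Under cardiomyocyte-marker scaling Speg, Cav3 and Casq1 turned to 0.25, 0.17 and 0.26, while Ppp1r1a and S100a1 stayed below 0 at -0.69 and -0.40.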

How the data were processed

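The authors aligned reads to GRCm38 (mouse) or Rnor_6.0 (rat) with HISAT2 2.0.4 and deposited estimated counts per gene from StringTie 2.1.4, in whole numbers; versions are from the submitters' processing notes. The authors' own DESeq2 results were not used. Columns name single samples at 1 month and only groups in the other tables, where libraries are numbered by the number in the column name.

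Each table was fitted alone with edgeR 4.0.16 (R 4.3.3): TMM scaling, filterByExpr (minimum count 10, minimum total 15), glmQLFit and glmQLFTest, with Benjamini-Hochberg adjustment over all genes tested and a call at an adjusted p under 0.05. SEs are log2 fold changes over the square root of F. Log2 CPM used a prior count of 2, exact permutation tests all 70 labelings. Ratio tests were 9, since Sln was left out of them in hearts. A joint fit of 16 libraries gave the interaction. The scripts were tested on simulated data. No 2 libraries agreed within sampling noise. Alternatives were DESeq2 1.42.0, DESeq2 size factors, library size or cardiomyocyte-marker scaling, other filters, the replicate block and each library left out.

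At 1 month, where numbers are in the labels, same-numbered libraries deviated together with r of 0.239, 0.12, -0.107 and 0.0782, so the numbers were not taken to pair mice. The members, the list of 41 other calcium genes and the marker lists were chosen with earlier results of these data known. Named genes are all members and, of the other calcium genes, up to 6 per table with the smallest adjusted p past the threshold, plus Atp2a1. Genes most like Atp2a2 and Ryr2 were ranked by Pearson r over the TAC libraries after subtracting group means, among genes of at least 5 CPM.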

Additional observations from a re-analysis of the deposited data

Results flagged for a closer look

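Of 100 groups of 4 values checked, 11 held a library whose gap to the nearest other exceeded Dixon's critical share of the range, and chance gives such a gap in about 1 of 20 groups. After TAC, Hrc was 403.8 CPM in library 4 labelled METTL5-cKO, and Asph was 103.7 CPM in library 2 of that group, where the others had 107.9 to 108.2. Jph2 was 70.55 CPM in Ctrl library 1 at 1 month. Sln was 0.2488 CPM in library 2 labelled METTL5-KO, where the others were at 0.

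In NRVMs, Trdn was 34.58 CPM in AdGFP library 1, Jph2 was 177.8 CPM in AdGFP library 3 and Sln was 1.526 CPM in AdMETTL5 library 4. The same AdMETTL5 library had a log2 ratio of Sln to Atp2a2 of -9.778. The log2 ratio of Slc8a1 to Atp2a2 was -5.187 in Ctrl library 4 at 3 months, -5.248 in Ctrl library 4 after TAC and -2.401 in AdGFP library 2.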

How the results depend on the processing

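After TAC the count of members called, 3, was 5 with DESeq2, 1 without a filter on low counts, 0 when an absolute log2 fold change over 1 was also asked, and 0 to 6 with a library left out: 0 without Ctrl library 2, Ctrl library 4 or cKO library 2, 1 without cKO library 3 and 6 without cKO library 4. In NRVMs it was 10, 1 with the fold threshold and 9 to 10 with a library left out. For the interaction it was 0 to 1, for TAC in Ctrl 0, or 4 with cardiomyocyte-marker scaling, and for TAC in cKO 3 to 4. Of the other calcium genes 1 was called at 3 months with DESeq2 against 0, and after TAC 2 with DESeq2, 3 with library size and 4 with marker scaling, and 1 to 3 with a library left out; in NRVMs 34 with marker scaling against 18. Of the marker genes DESeq2 called 4 at 3 months and 27 after TAC against 17, which was 5 to 25 with a library left out. Leaving out libraries for these lists, and DESeq2 for the marker lists, were chosen after seeing the data. Library size alone changed all genes called after TAC from 1074 higher and 997 lower to 2060 and 524, and marker scaling to 3085 and 506; in NRVMs, from 4082 and 3867 to 5872 and 2343, and 14363 and 78. Library size alone moved the median of all genes by 0.15 after TAC and by 0.14 in NRVMs.

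The direction turned in the following cases, in NRVMs also for members called with TMM scaling. With marker scaling log2 fold changes became 0.057 for Pln and 0.014 for Asph at 3 months, 0.12 for Ryr2 and 0.16 for Asph after TAC, and -0.092 for Asph with TAC in Ctrl. In NRVMs they became 0.44 for Atp2a2, 0.19 for Pln, 0.50 for Sln, 0.14 for Ryr2, 0.27 for Casq2, 0.40 for Slc8a1, 0.44 for Jph2, 0.47 for Hrc and 0.92 for Asph. With library size alone they became 0.026 for Pln at 3 months, 0.083 for Ryr2 and 0.13 for Asph after TAC and 0.026 for Slc8a1 with TAC in cKO. With a library left out they ran from -0.083 to 0.22 for Hrc at 1 month, at 3 months from -0.24 to 0.053 for Atp2a2, -0.10 to 0.058 for Pln and -0.14 to 0.21 for Slc8a1, and after TAC from -0.18 to 0.085 for Ryr2, -0.041 to 0.066 for Jph2 and -0.047 to 0.018 for Asph. For Trdn with TAC in Ctrl they ran from -0.055 to 0.026, and for Slc8a1 with TAC in cKO from -0.17 to 0.15. The causes were not tested. With the replicate block at 1 month 0 members were called, as without it; no paired analysis was possible in the other tables because their columns carry no sample numbers of the labels. Sln could not be tested in hearts at this depth.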

Other observations

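Over the 24 heart libraries, after subtracting group means, the log2 CPM of members deviated together to different degrees. These correlations are descriptions, and libraries of a table share their scaling. The median Pearson r over the 36 pairs was 0.503. Casq2 and Asph had the highest r (0.904), and Ryr2 and Slc8a1 had 0.803. Trdn stood apart, with a median r of 0.0997 to the other members and -0.6 to Pln.

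Over the 8 TAC libraries, again after subtracting group means, the non-members most like Atp2a2 were Cs (r = 0.985), which encodes citrate synthase, Psap (0.984) and Gm30970 (0.977). Those most like Ryr2 were Abcb4 (0.985), Atp1b1 (0.985), a subunit of the sodium pump, and Galnt1 (0.981). They were picked as the highest of 10007 genes, and no test was made.

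Levels of unstressed Ctrl hearts on 1 scale for all 24 heart libraries are given side by side for the 2 ages, which belong to separate tables. Atp2a2 was 2005 ± 437 CPM at 1 month and 4809 ± 1300 CPM at 3 months, Ryr2 253 ± 57.3 and 598 ± 103 CPM, and Slc8a1 62.2 ± 5.91 and 147 ± 38.8 CPM. Trdn was 321 ± 59.2 and 197 ± 12.9 CPM, the other direction. Age and table cannot be told apart here.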
